A study of Mus musculus with 70 samples.

Results

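Gene expression was compared between renal cancer cells recovered from primary kidney tumours at passage 6 (KPT P6, replicates 1, 2 and 4) and cells recovered at passage 6 from lung metastases that had formed after implantation into the kidney (K-LM P6, replicates 1 to 3). These 6 arrays, chosen because all lie on the same slide, are 6 of the 70 in the series. Both lines derive from RENCA, a renal adenocarcinoma line of the BALB/c mouse with wild-type Vhl, which had been given green fluorescent protein by a lentivirus (P0). In each round, 100000 cells were placed under the capsule of the left kidney of female wild type BALB/c mice aged 6 weeks. The K-LM line was re-implanted from lung metastases and the KPT line from kidney tumours in every round, so the K-LM P6 cells are not metastases of the KPT P6 tumours. The recovered cells were kept in culture before use, in which the host's cells were lost according to the study's methods, whereas the labels describe homogenised samples. Total RNA was labelled with Cy5 and hybridised to single-colour Agilent mouse arrays. The labels do not say whether replicates of a group came from separate animals, so p-values measure the spread between these samples, which may be technical. On the same slide lay 2 arrays of P0, used here as a reference level, and 5 KPT P6 arrays of an earlier set, on other slides, served to check directions.

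Acute-phase proteins are secreted in large amounts by the liver, and by many epithelia, when interleukin-6 and interleukin-1 reach their receptors. STAT3, C/EBP and NF-kB are the transcription factors best known to switch their genes on. Serum amyloids, alpha-1-antichymotrypsins of the Serpina3 cluster, orosomucoids and lipocalin 2 belong to them, and complement factors C3 and factor B follow the same cues. Bone morphogenetic proteins, which guide kidney development, signal through Smad proteins and are held back in the matrix by antagonists such as gremlin.

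Levels are given as log2 signal relative to the 75th percentile of probes detected on all arrays of the series, so a level of 0 means as bright as that percentile and a difference of 1 is a 2-fold difference. Between 34.4% and 35% of probes were well above background on K-LM arrays and between 35.5% and 36.8% on KPT arrays. Correlations between arrays over the tested probes were 0.9934 to 0.9969 within KPT, 0.9898 to 0.9952 within K-LM and 0.963 to 0.9756 between the groups. An index of RNA quality, the mean level of 20 long mRNAs minus that of 80 ribosomal protein mRNAs, was -6.66, -6.10 and -5.76 on the KPT arrays and -6.13, -6.23 and -6.16 on the K-LM arrays. The ranges overlapped, and none of the 19 long mRNAs tested was called by limma. At an unadjusted p under 0.05, 4 had K-LM higher and 2 had KPT higher. K-LM replicate 3 stood apart within its group: 271 of 11523 genes were at least 2-fold above both other K-LM arrays on it, compared with 6 to 12 genes on any other of the 6 arrays. Genes at least 2-fold below both other arrays of the group numbered 55 on K-LM replicate 2 and 53 on KPT replicate 1. There were 16 such genes on K-LM replicate 3 and at most 11 on the remaining arrays. The K-LM arrays lay in row 1 of the slide and the KPT arrays in row 2, so row and group cannot be told apart within the 6 arrays. The P0 arrays, 1 in each row, and the rest of the series allowed fits with a term for the row, and calls held by both such fits are named below. In the fit on the slide alone, the row term rests on those 2 P0 arrays, 1 against 1. Over all 70 arrays, limma called the row difference for 1 of 20569 probes. Its absolute size over all tested probes had a median of 0.178 and a 95th percentile of 0.648. The median absolute K-LM minus KPT difference of called probes was 0.864. Those probes were selected for that difference, so the 2 medians are not like for like. The part of the row in the calls was not tested.

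**Figure D1:**
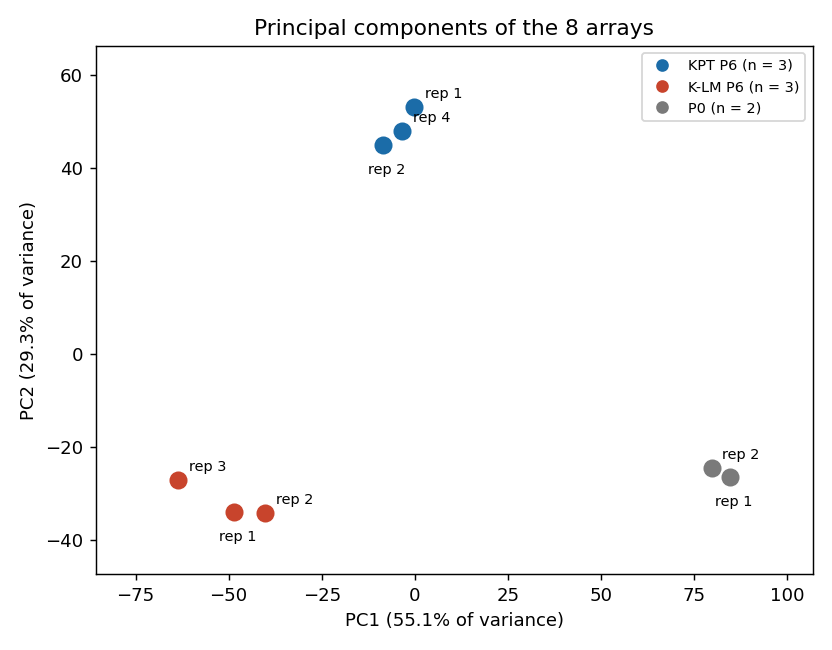
Principal components of the tested probes over the 8 arrays of the slide, with PC1 (55.1% of variance) on the x axis, PC2 (29.3%) on the y axis and 1 point per array. The KPT P6 arrays lie between 44.92 and 53.13 on PC2 and the K-LM P6 arrays between -34.23 and -27.02, while P0 lies at 79.76 and 84.65 on PC1.

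Of 20569 probes tested, 3567 (17.3%) differed between KPT P6 and K-LM P6 at a limma adjusted p of 0.01 or less, which is the meaning of called throughout. K-LM was higher for 1327 of them (6.45%) and KPT for 2240 (10.9%). With each gene represented by its brightest probe, 2083 of 11523 genes (18.1%) were called, 833 with K-LM higher (7.23%) and 1250 with KPT higher (10.8%). Most differences were small, since 1300 called genes differed by less than 2-fold, but the largest were on the K-LM side. There, 123 genes were at least 4-fold higher in K-LM, against 73 at least 4-fold higher in KPT. Values of the 3 KPT and the 3 K-LM arrays did not overlap for 6376 genes (55.3%). The median difference of all genes, K-LM minus KPT, was -0.04. Not all called genes were measured on both sides: 78 were not well above background on any KPT array and 127 not on any K-LM array. Such genes entered the test only through the group in which they are high, and their ratios are given as at least N-fold. The number of called probes ranged from 1304 without KPT replicate 4 to 3074 without K-LM replicate 3, and was 1551 without K-LM replicate 1, 1978 without KPT replicate 2, 2176 without K-LM replicate 2 and 2240 without KPT replicate 1. With the row as a term it was 217, and with slide and row terms over all 70 arrays it was 419. Of the genes called here, 55 with K-LM higher and 77 with KPT higher were also called with the row as a term, and 113 and 139 in the fit over all arrays.

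Acute-phase genes were among those with the largest differences. Of 18 acute-phase genes tested, 14 were called and all 14 were higher in K-LM, where 7.23% of all genes were called in that direction. Values of the groups did not overlap for 17 of the 18, against 55.3% of all genes. Their median difference was 2.87, against -0.04 for all genes, and it was the same with the 4 genes below background in KPT set to their bounds. The 4, Saa2, Serpina3i, Serpina3m and Serpina3n, entered the test only through their K-LM arrays. A further 12 list members on the array were not well above background on any of the 6 arrays. No member was called with KPT higher in limma, and 2 had KPT higher at an unadjusted p under 0.05. The call held for 12 of the 14 in every fit that left out 1 array. Hp lost it without KPT replicate 2 or K-LM replicates 1 or 2 (adjusted p up to 0.0168), and Lbp without KPT replicates 1 or 4 (up to 0.0183). With the row as a term 8 of the 14 were called, and 10 in the fit over all arrays.

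The promoters of 5 acute-phase genes with large differences are shown from 250 bases before to 50 bases after the start, 5′ to 3′ on the gene's strand, to let their sequence be read beside the values. They are from RefSeq, build GRCm38.p6, at chr12:104262872-104263171 (+ strand) for Serpina3i, chr12:104406458-104406757 (+) for Serpina3n, chr12:104214294-104214593 (+, the first of 2 starts listed) for Serpina3f, chr7:46742931-46743230 (- strand) for Saa1 and chr7:46751583-46751882 (+) for Saa2. Capitals mark matches, on either strand, to TTCNNNGAA (the STAT motif), to GGG and TTCC set 3 bases apart (NF-kB) or to TTNNGCAA (C/EBP), and positions are counted from the start of the gene.
Serpina3i: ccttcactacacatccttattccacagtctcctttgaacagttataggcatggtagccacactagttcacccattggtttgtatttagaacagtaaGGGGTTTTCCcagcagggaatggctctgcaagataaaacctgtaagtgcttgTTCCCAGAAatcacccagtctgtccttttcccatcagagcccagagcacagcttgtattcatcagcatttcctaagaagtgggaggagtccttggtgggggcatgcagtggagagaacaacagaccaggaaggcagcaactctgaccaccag
Serpina3n: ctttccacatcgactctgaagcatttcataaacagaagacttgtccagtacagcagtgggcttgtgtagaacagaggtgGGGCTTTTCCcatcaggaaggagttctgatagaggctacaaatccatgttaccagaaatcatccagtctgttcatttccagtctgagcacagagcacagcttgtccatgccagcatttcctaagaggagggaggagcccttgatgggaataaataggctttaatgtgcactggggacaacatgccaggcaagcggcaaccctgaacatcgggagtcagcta
Serpina3f: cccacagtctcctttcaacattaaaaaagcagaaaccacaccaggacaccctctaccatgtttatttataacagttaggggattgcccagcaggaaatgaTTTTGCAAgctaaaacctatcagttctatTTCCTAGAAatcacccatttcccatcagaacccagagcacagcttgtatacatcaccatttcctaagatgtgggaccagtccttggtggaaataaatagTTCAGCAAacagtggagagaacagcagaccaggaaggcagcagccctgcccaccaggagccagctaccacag
Saa1: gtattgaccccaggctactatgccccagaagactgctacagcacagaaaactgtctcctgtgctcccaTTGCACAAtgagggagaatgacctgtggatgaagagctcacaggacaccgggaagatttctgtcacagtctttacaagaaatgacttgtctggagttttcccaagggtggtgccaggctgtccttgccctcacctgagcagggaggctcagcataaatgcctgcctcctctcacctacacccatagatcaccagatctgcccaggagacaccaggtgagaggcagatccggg
Saa2: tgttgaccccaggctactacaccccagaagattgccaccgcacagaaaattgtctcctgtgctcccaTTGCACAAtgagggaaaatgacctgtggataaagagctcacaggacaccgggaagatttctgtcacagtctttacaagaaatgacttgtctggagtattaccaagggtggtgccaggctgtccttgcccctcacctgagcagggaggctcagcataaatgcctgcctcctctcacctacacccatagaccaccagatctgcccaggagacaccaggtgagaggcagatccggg
The Serpina3i promoter holds a STAT match at -102 and an NF-kB match at -154. Serpina3n holds an NF-kB match at -171, Serpina3f a STAT match and 2 C/EBP matches, and Saa1 and Saa2 a C/EBP match each, at -182 and -183. Of the 14 called genes, 10 had a promoter in the table: 2 held the STAT motif, 3 the NF-kB motif and 7 the C/EBP motif. Over all 32851 promoters of that length the shares were 8.3%, 5.56% and 10.8%. A gene was counted when any of its listed starts held a match, whereas these shares are of single promoters. Saa1 and Saa2 hold the same C/EBP letters, so the genes are not independent. These matches are letters in a window and say nothing about binding.

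Serpina3i, an antichymotrypsin-type protease inhibitor, had levels of -7.63, -7.23 and -8.06 on the KPT arrays and -1.28, -0.85 and -1.1 on the K-LM arrays. It was below background on every KPT array and at least 72.3-fold higher in K-LM (limma adjusted p = 4.74e-06). Its relative Serpina3n was at -9.29, -9.13 and -9.49 in KPT and at -1.72, -0.87 and -1.19 in K-LM, at least 63.8-fold higher (adjusted p = 1.88e-06). Serpina3f was measured on both sides, with -4.40, -3.90 and -4.55 in KPT and 1.67, 1.94 and 1.98 in K-LM, a difference of 6.15 ± 0.18 (SE, adjusted p = 2.27e-06). For each of these genes the lowest K-LM array was above the highest KPT array, which the rule for naming them required. Serpina3m was at least 22.6-fold higher in K-LM, and the transcribed pseudogene Serpina3h differed by 4.70 ± 0.12. The Serpina3 cluster on chromosome 12 has 14 entries in RefSeq, of which 10 are on the array. All 7 that were tested (b, c, f, h, i, m and n) were higher in K-LM, but 5 of them entered the test only through their K-LM arrays, and Serpina3a, Serpina3j and Serpina3k were not well above background on any of the 6 arrays. The members are close in sequence, so a probe can read its relatives and the 7 are not independent measurements. In P0, Serpina3f was at -4.46 and -5.38, Serpina3m was below background, and Serpina3i and Serpina3n were above background on 1 of 2 arrays.

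The serum amyloids are apolipoproteins of the acute phase. Saa3, the form made outside the liver, was at -3.43, -3.73 and -4.36 in KPT and at 1.2, 1.23 and 2.08 in K-LM, a difference of 5.34 ± 0.30 (SE, adjusted p = 5.93e-05). Saa1 rose from -4.78, -4.88 and -5.26 in KPT to -1.11, -0.96 and -0.33 in K-LM, by 4.17 ± 0.22 (adjusted p = 4.96e-05). Saa2 was below background on all KPT arrays and at -4.38, -3.89 and -4.03 in K-LM, at least 8.93-fold higher (adjusted p = 9.42e-05). Saa1 and Saa2 are near-identical and their probes may read both. Lrg1, a secreted leucine-rich glycoprotein, was at -5.59, -5.30 and -5.65 in KPT and at -1.71, -1.02 and -1.40 in K-LM, 4.14 ± 0.19 higher (adjusted p = 2.48e-05). Lcn2, the iron-siderophore carrier lipocalin 2, was bright in both, at 1.02, 1.59 and 0.38 in KPT and 3.54, 3.62 and 3.76 in K-LM, a difference of 2.64 ± 0.27 (adjusted p = 0.000661). The orosomucoids Orm1, Orm2 and Orm3 differed by 1.97 ± 0.18, 2.32 ± 0.18 and 1.70 ± 0.14. The KPT spread of Lcn2, just over 1 unit, was wider than that of the other genes, but no KPT value reached the K-LM range. Saa1, Saa2, Saa3, Lrg1 and the 4 Serpina3 genes of the list kept their calls in both row fits, whereas Lcn2 and Orm3 did so only in the fit over all arrays.

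**Figure D2:**
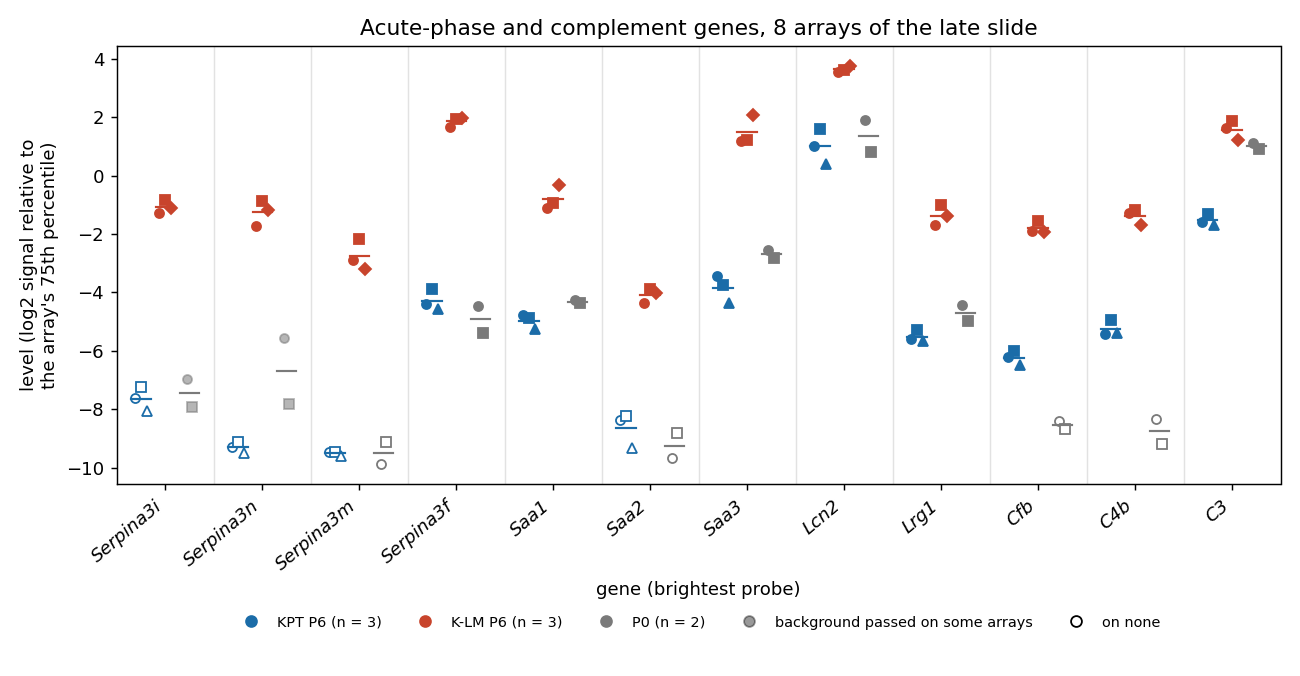
Levels (log2 signal relative to the array's 75th percentile) of 12 acute-phase and complement genes on each array, with KPT P6 in blue, K-LM P6 in red and P0 in grey, lines at the group means, and open symbols where no array of the group was well above background. In each gene shown the 3 K-LM arrays lie above the 3 KPT arrays, and Serpina3i, Serpina3n, Serpina3m and Saa2 are below background in KPT.

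Of 16 complement genes tested, 5 were higher in K-LM (Cfb, C4b, C3, C1rb and Serping1) and 2 in KPT (Cd59a and Cr1l), with a median of 0.57. Of all genes, 7.23% and 10.8% were called in these directions, and the KPT count is near that share. Cfb, the protease subunit of the alternative-pathway convertase, was at -6.20, -6.02 and -6.48 in KPT and at -1.89, -1.54 and -1.94 in K-LM, a difference of 4.45 ± 0.16 (SE, adjusted p = 6.12e-06). C4b was at -5.44, -4.94 and -5.39 in KPT and at -1.28, -1.19 and -1.71 in K-LM (3.86 ± 0.18, adjusted p = 3.13e-05). C3, the central component that all pathways cleave, was at -1.57, -1.33 and -1.69 in KPT and at 1.63, 1.86 and 1.21 in K-LM (3.10 ± 0.18, adjusted p = 6.81e-05). The 3 genes stood differently to the parental line. P0 was below background for Cfb and C4b, and KPT lay above it, whereas C3 in P0, at 1.1 and 0.92, was above KPT and nearer to K-LM. Cd59a, which blocks the terminal membrane attack complex, went the other way, with KPT 1.53 ± 0.10 higher (adjusted p = 0.000137). Cfb and C3 were called in both row fits. C4b was called with the row as a term but had an adjusted p of 0.0104 over all arrays, and Cd59a one of 0.057. C1rb lost its call without K-LM replicate 1, KPT replicate 1 or KPT replicate 4 (adjusted p up to 0.0212), Serping1 without K-LM replicate 2, KPT replicate 1 or KPT replicate 4 (up to 0.0161), so that 3 genes with K-LM higher were left without KPT replicate 1, and Cr1l without any 1 of the 6 arrays (up to 0.0501).

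Genes that control the acute phase differed less than its products. Among 19 genes of the IL-6 family, its receptors and STAT3 feedback, 6 were higher in K-LM and 1, Il11, in KPT, with a median of 0.51, where 7.23% and 10.8% of all genes were called. Il11 lost its call without K-LM replicate 1, KPT replicate 2 or KPT replicate 4 (adjusted p up to 0.0142). Socs3, the feedback inhibitor that STAT3 itself induces, was at -1.30, -0.85 and -0.72 in KPT and 0.54, 0.28 and 0.94 in K-LM, 1.55 ± 0.21 higher (SE, adjusted p = 0.00181). Bcl3, an atypical IkB protein, differed by 2.00 ± 0.21 (adjusted p = 0.000668). Il6 did not pass (3.14 ± 0.85, adjusted p = 0.0249): its K-LM levels were -5.03, -4.81 and -1.98, replicate 3 standing apart, and its KPT levels -8.30, -6.35 and -6.60. The shared receptor chain Il6st differed by 0.06 (adjusted p = 0.773). Of 22 NF-kB genes, 4 were higher in K-LM and none in KPT, with a median of 0.35. At an unadjusted p under 0.05, limma gave 11 with K-LM higher and 3 with KPT higher. Nfkbia, the feedback inhibitor IkB-alpha, was 1.75 ± 0.20 higher (adjusted p = 0.00102). Socs3, Bcl3 and Nfkbia kept their calls in all fits that left out 1 array, but the counts with K-LM higher fell to 2 IL-6 genes without KPT replicate 4 and to 1 NF-kB gene without K-LM replicate 1. With the row as a term none of the IL-6 or NF-kB genes was called (Socs3 at an adjusted p of 0.075), and only Nfkbia was called over all arrays.

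Of 37 interferon-stimulated genes tested, 14 were higher in K-LM, against 7.23% of all genes, and 1, Ifit2, in KPT, against 10.8%, with a median of 0.49. Oas3, an enzyme of the antiviral 2′,5′-oligoadenylate system, was at -5.09, -4.63 and -4.43 in KPT and at -2.28, -2.34 and -2.64 in K-LM, 2.30 ± 0.18 higher (SE, adjusted p = 0.000263). Dhx58, Irf7, Stat2 and Usp18 differed by 1.82 ± 0.15, 1.71 ± 0.21, 1.42 ± 0.10 and 1.31 ± 0.12. Irf9 did not pass (0.28, adjusted p = 0.0561). Stat2 was at -2.08 and -2.62 in P0, at -1.84, -1.89 and -1.85 in KPT and at -0.35, -0.41 and -0.58 in K-LM. Of the 14 calls, 7 held in every fit that left out 1 array, and the count was 8 without KPT replicate 2. With the row as a term only Oas3 was called, and over all arrays only Stat2. Of 23 MHC class I presentation genes tested, none was called with K-LM higher in limma (4 at an unadjusted p under 0.05) and 1, H2-M3, was higher in KPT, and the difference from the interferon list was not tested. H2-M3 lost that call without K-LM replicate 1, KPT replicate 2 or KPT replicate 4 (adjusted p up to 0.0177). Ifit2 lost its call without KPT replicates 2 or 4 or K-LM replicates 1 or 2 (up to 0.0151). Among 8 CC chemokines, 4 were higher in K-LM and 1 in KPT, of which Ccl8 (1.52 ± 0.13, adjusted p = 0.000297) was the one called in every fit that left out 1 array, and 1 was called without KPT replicate 4.

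**Figure D3:**
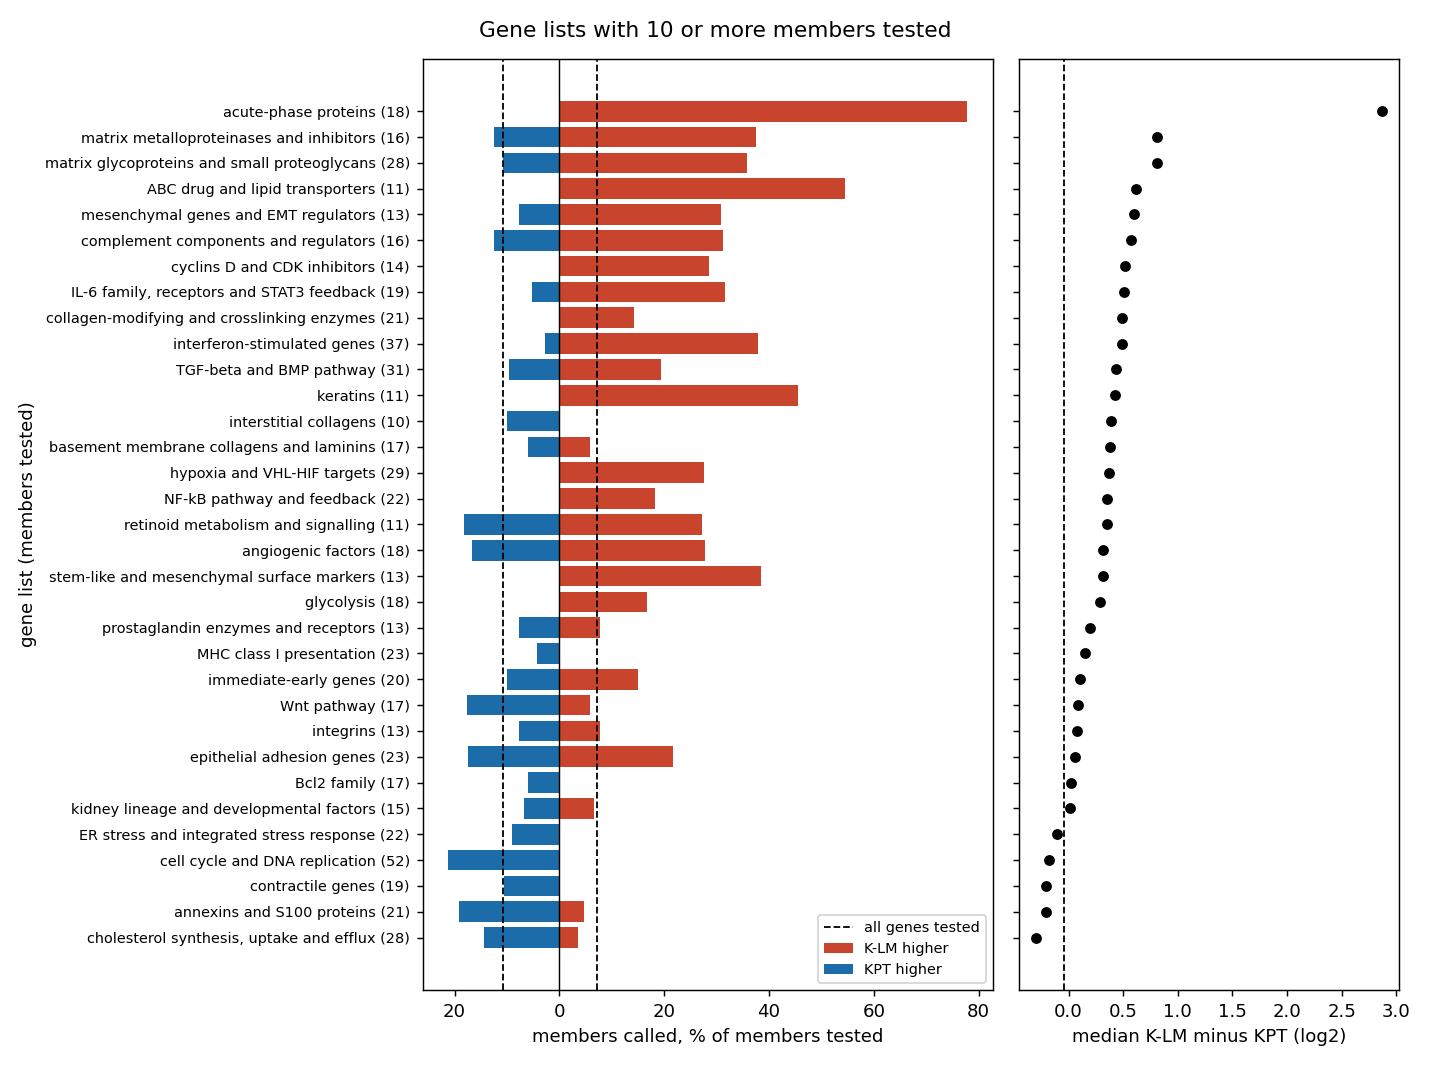
Gene lists with 10 or more members tested, ordered by their median difference. On the left, bars give the share (%) of tested members called, to the right of 0 for K-LM higher and to the left for KPT higher. On the right, points give the median K-LM minus KPT difference (log2), and dashed lines mark the shares (7.23% and 10.8%) and the median (-0.04) of all genes. The acute-phase list, with a median of 2.87, stands farthest to the right.

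The late cornified envelope gene Lce1g, whose product is a structural protein of the outermost epidermis, was below background in KPT and at -1.50, -1.35 and -0.93 in K-LM, at least 64-fold higher (adjusted p = 5.69e-07). Lce1i was at least 31.3-fold higher (adjusted p = 7.25e-06). Of 14 Lce1 genes on the array, 7 were tested and all 7 had K-LM higher, 5 of them entering only through K-LM arrays. The 2 measured in both groups, Lce1a2 and Lce1j, differed by 1.30 ± 0.12 and 1.67 ± 0.13. As with Serpina3, these genes lie on the same chromosome, 3, and resemble each other, so a probe can read its relatives. Periplakin (Ppl), which ties keratin filaments to desmosomes, was below background in KPT and at -3.87, -4.42 and -3.95 in K-LM, at least 8.83-fold higher (adjusted p = 6.55e-05). Its partner envoplakin (Evpl) differed by 1.54 ± 0.21. Of 11 keratins tested, 5 were higher in K-LM and none was called with KPT higher in limma, with 2 at an unadjusted p under 0.05. Among all genes, 7.23% were called with K-LM higher and 10.8% with KPT higher. Krt20 was at -2.12, -1.95 and -2.01 in KPT and at 0.79, 0.17 and 0.79 in K-LM, 2.61 ± 0.18 higher (adjusted p = 0.00014), and was below background in P0. Without KPT replicate 4, 2 keratins were called. The simple-epithelial keratins Krt8 (-0.17, adjusted p = 0.587) and Krt18 (-0.27, adjusted p = 0.0871) did not pass. Lce1g, Lce1i, Ppl and the tight-junction claudin Cldn1 (1.86 ± 0.16, adjusted p = 0.000297) were called in both row fits. Krt20 was called with the row as a term (adjusted p = 0.0036) and had an adjusted p of 0.012 over all arrays.

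Epithelial adhesion genes as a list were split, with 5 of 23 higher in K-LM and 4 in KPT and a median of 0.06. Of all genes, 7.23% and 10.8% were called in these directions. The KPT side included 2 genes known from kidney tubules. In the separate list of kidney tubule and glomerulus markers, 5 were tested and 1 was called in each direction. Cdh16, the kidney-specific cadherin of tubules, was at -4.99, -4.66 and -4.39 in KPT and below background on every K-LM array, at least 5.09-fold higher in KPT (adjusted p = 0.000328). Cldn7, a claudin of the distal nephron, was at least 3.29-fold higher (adjusted p = 0.000143). Both were below background in P0. Cdh1, encoding E-cadherin, was not well above background on any of the 6 arrays and Epcam on 1 KPT array, and the intermediate filament gene Vim did not pass (0.12, adjusted p = 0.427). Among 13 mesenchymal genes and regulators tested, 4 were higher in K-LM (1 without K-LM replicate 1) and 1 in KPT. The KPT count is near the share of all genes. Without K-LM replicate 1 the count of all probes with K-LM higher also fell, from 1327 to 593. The repressor Snai1 was 1.14 ± 0.12 higher in K-LM (adjusted p = 0.000656), and S100a4 was 1.2 ± 0.16 higher in KPT (adjusted p = 0.00163). Of these, Cdh16 was called over all arrays (adjusted p = 0.0013) but not with the row as a term (0.02), and Cldn7, Snai1 and S100a4 in neither.

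Of 28 matrix glycoproteins and proteoglycans tested, 10 were higher in K-LM and 3 in KPT, with a median of 0.81. Of all genes 7.23% and 10.8% were called in these directions, and the KPT count is near that share. Matrix Gla protein (Mgp), an inhibitor of calcification that binds bone morphogenetic proteins, was at -4.84, -4.11 and -3.73 in KPT and at -0.12, 0.25 and 1.76 in K-LM, 4.86 ± 0.49 higher (SE, adjusted p = 0.000607). The elastic-fibre gene Fbln2 differed by 1.26 ± 0.16 and Efemp2 by 0.98 ± 0.10. Ogn, a small leucine-rich proteoglycan, was at -5.78, -5.60 and -5.65 in KPT and below background in K-LM, at least 2.55-fold higher in KPT (adjusted p = 2.78e-05). Mgp, Fbln2, Efemp2 and Ogn kept their calls in every fit that left out 1 array, while 7 of the 10 genes with K-LM higher did not, 3 being called without KPT replicate 1. None of the 10 was called in either row fit, Mgp having adjusted p of 0.019 and 0.027. Among 16 metalloproteinases and inhibitors, 6 were higher in K-LM and 2, Mmp2 and Mmp9, in KPT. Stromelysin 1 (Mmp3) was at -6.90, -6.00 and -6.71 in KPT and at -3.34, -3.42 and -1.68 in K-LM, 3.72 ± 0.47 higher (adjusted p = 0.00137), with an adjusted p of 0.50 once the row was a term. Of 10 interstitial collagens tested, with a median of 0.39, none was called with K-LM higher in limma (4 at an unadjusted p under 0.05) and 1, Col14a1, was higher in KPT, where 7.23% and 10.8% of all genes were called. Mmp2 lost its call without KPT replicate 4 (adjusted p = 0.0140), Mmp9 without KPT replicate 4 or K-LM replicates 1 or 2 (up to 0.0195), and Col14a1 without any array but KPT replicate 2 and K-LM replicate 3 (up to 0.0294).

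Markers of fibroblasts and pericytes moved within the groups. Of 13 on the array, 7 were tested, none was called and 1 had an unadjusted p under 0.05. Of all genes, 18.1% were called in either direction, and with 7 tested a count of none is near that share. Dpt, Lum, Rgs5 and Tcf21 were not well above background on any of the 8 arrays of the slide. The summed level of the list was -0.50 to 0.36 on KPT arrays, 0.12 to 1.69 on K-LM arrays, highest on replicate 3, and -4.35 to -4.14 on P0. Col1a1 was at -4.51, -3.27 and -2.50 in KPT and at -1.56, -2.15 and -0.30 in K-LM (2.09 ± 0.59, adjusted p = 0.0289). Pdgfrb, a defining receptor of these cells, was at -3.55, -3.56 and -3.18 in KPT and at -3.69, -3.54 and -3.52 in K-LM (-0.15, adjusted p = 0.393). Of the 833 genes with K-LM higher, 37 were at least 2-fold above both other K-LM arrays on replicate 3, and 33 of these were among the 123 with a difference of 4-fold or more. In bulk RNA, more cells of a type and more RNA per cell cannot be told apart. The part of such cells in the matrix differences was not tested.

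**Figure D4:**
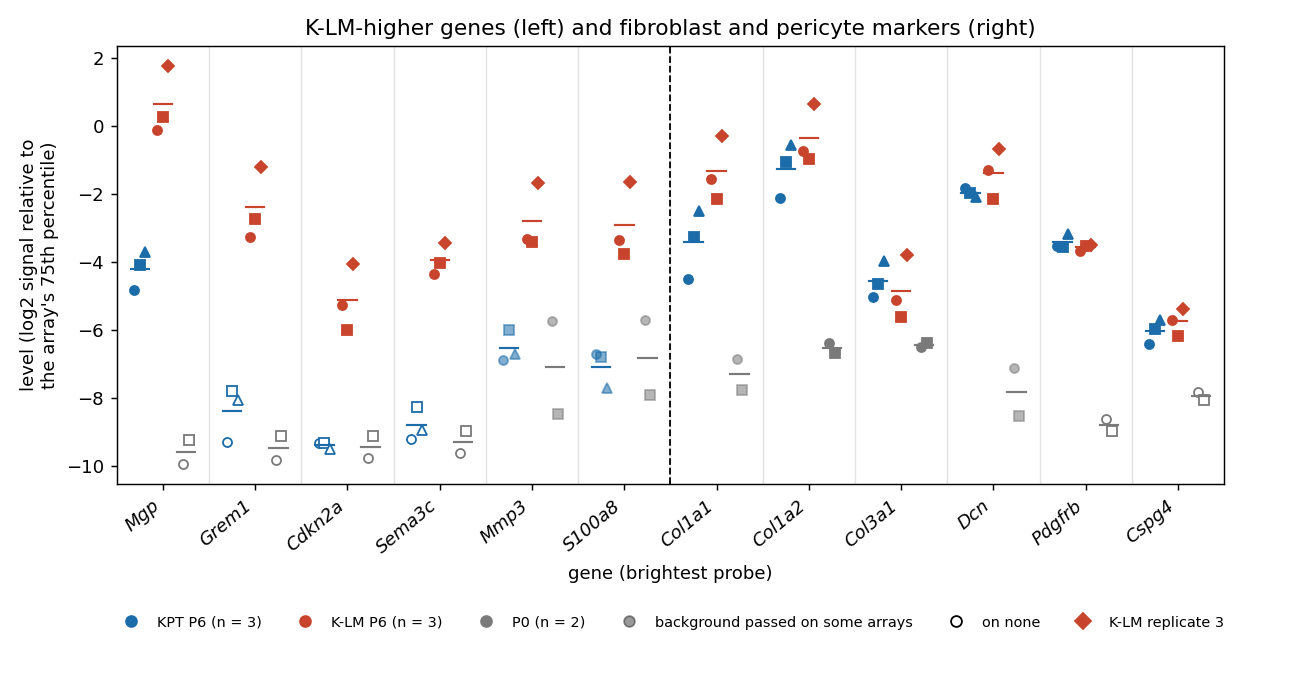
Levels (log2 signal relative to the array's 75th percentile) of 6 genes with K-LM higher (left of the dashed line) and 6 fibroblast and pericyte markers (right) on each array of KPT P6, K-LM P6 and P0, with lines at the means. K-LM replicate 3 (diamonds) is the highest K-LM array in all 12 genes, and in the 6 markers the KPT and K-LM ranges overlap for all but Col1a1.

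In the bone morphogenetic protein pathway, an antagonist was higher and a ligand lower in K-LM than in KPT. Among 31 TGF-beta and BMP genes tested, 6 were higher in K-LM (2 without KPT replicate 1) and 3 in KPT, with a median of 0.43. Of all genes, 7.23% were called with K-LM higher and 10.8% with KPT higher, and the KPT count is near that share. Without KPT replicate 1 the count of all probes with K-LM higher also fell, from 1327 to 863. Gremlin 1 (Grem1), a secreted BMP antagonist, was below background in KPT and at -3.28, -2.74 and -1.21 in K-LM, at least 28.8-fold higher (adjusted p = 0.000491). Bmp7, a ligand needed for nephron formation, was at -4.59, -4.43 and -4.39 in KPT and at -8.0, -8.54 and -6.94 in K-LM, where 1 of 3 arrays was above background, a difference of -3.36 ± 0.35 (adjusted p = 0.000712). In P0, Bmp7 was at -6.80 and -8.72, so the KPT level was the one far from P0, and Grem1 was below background. Tgfbr2, the type II TGF-beta receptor, was 2.04 ± 0.28 higher in K-LM, and the ligand Tgfb3 was 1.56 ± 0.20 higher in KPT. The BMP target genes Id1 (0.60, adjusted p = 0.227) and Smad7 (-0.45, adjusted p = 0.32) did not pass, nor did Id3 (1.03, adjusted p = 0.0196). Tgfbr2 and Tgfb3 were called in neither row fit. Bmp7 was called in both and Grem1 over all arrays (adjusted p = 0.0048), with 0.017 when the row was a term. As for Mgp, K-LM replicate 3 had the highest Grem1 level.

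Growth factors and guidance cues differed in both directions. Insulin-like growth factor 1 (Igf1) was at -4.70, -4.82 and -4.51 in KPT and below background on all K-LM arrays, at least 5.11-fold higher in KPT (adjusted p = 8.53e-05). P0, at -2.67 and -3.82, was above both, so the K-LM level was the low one. Igfbp4, which binds and inhibits IGF, was 1.46 ± 0.13 higher in KPT. Semaphorin 3C (Sema3c), a secreted guidance cue, was below background in KPT and P0 and at -4.38, -4.03 and -3.44 in K-LM, at least 9.88-fold higher (adjusted p = 8.53e-05). Endothelin 1 (Edn1) was at -6.90, -6.67 and -6.41 in KPT and at -3.73, -3.38 and -3.99 in K-LM, 2.96 ± 0.19 higher (adjusted p = 9.42e-05), and angiopoietin 2 (Angpt2) was at least 3.17-fold higher in KPT. Of 18 angiogenic factors tested 5 were higher in K-LM (2 without KPT replicate 1) and 3 in KPT (1 without K-LM replicate 1), and Vegfa did not pass (-0.34, adjusted p = 0.14). The shares of all genes called in these directions were 7.23% and 10.8%. Over all probes the counts fell too without those arrays. They fell from 1327 to 863 with K-LM higher and from 2240 to 958 with KPT higher. Igf1 and Sema3c were called in both row fits, Igfbp4 and Edn1 with the row as a term but not over all arrays (adjusted p = 0.026 and 0.015), and Angpt2 in neither.

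Of 52 genes of the cell cycle and DNA replication tested, 11 were higher in KPT (21.2%, against 10.8% of all genes) and none was called with K-LM higher in limma (1 at an unadjusted p under 0.05), with a median of -0.17. The differences were small: Prim1, the catalytic primase subunit, was 0.93 ± 0.09 higher in KPT (adjusted p = 0.000529) and Gins1, of the replicative helicase, 0.73 ± 0.09 (adjusted p = 0.00151). These 2 were the members called in every fit that left out 1 array, and they alone were called without K-LM replicate 1. The proliferation marker Mki67 did not pass (-0.12 ± 0.21, adjusted p = 0.68) and changed sign without KPT replicate 4. Of 14 D-type cyclins and CDK inhibitors, 4 were higher in K-LM (Cdkn2a, Cdkn1a, Cdkn2d and the cyclin Ccnd3), against 7.23% of all genes. Cdkn2a, the locus of p16 and Arf, was below background in KPT and P0 and at -5.28, -6.03 and -4.07 in K-LM, at least 4.38-fold higher (adjusted p = 0.000597). Cdkn1a, encoding p21, was at -1.74, -1.40 and -1.74 in KPT and at 0.05, -0.16 and 0.13 in K-LM, 1.63 ± 0.14 higher (adjusted p = 0.000288). Prim1, Cdkn2a and Cdkn1a were called in the fit over all arrays, and none of the genes of both lists with the row as a term.

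Among the genes with the largest differences on the KPT side, Cavin4, a coat protein of caveolae best known from muscle, was at -2.47, -2.62 and -2.63 in KPT and at -7.44, -6.82 and -7.60 in K-LM, where 1 of 3 arrays was above background, a difference of -4.71 ± 0.20 (SE, adjusted p = 1.57e-05). The X-linked lymphocyte-regulated gene Xlr4a was at -3.23, -3.32 and -3.36 in KPT and at -8.62, -9.01 and -6.56 in K-LM (-4.76 ± 0.56, adjusted p = 0.0011). Of the Xlr3, Xlr4 and Xlr5 genes 7 are on the array, and the 3 tested, Xlr3b, Xlr4a and Xlr4b, were higher in KPT, though their probes may read each other's transcripts. The related gene Xlr did not pass (-0.32, adjusted p = 0.0924). The tetraspanin Tspan32 was measured well in both, at -2.73, -2.66 and -2.69 in KPT and at -5.79, -5.61 and -5.91 in K-LM (-3.07 ± 0.11, adjusted p = 6.12e-06), and 2 other probes of it differed by -3.47 and -3.15. Pax3, a transcription factor of muscle and neural crest, was at least 2.43-fold higher in KPT (adjusted p = 0.000227). Spon2, a matrix protein, was at least 9.63-fold higher (adjusted p = 0.000217), but not in the row fits (adjusted p = 0.065 and 0.079). Tropomyosin 1 (Tpm1) was bright in both, 1.35 ± 0.10 higher in KPT (adjusted p = 0.000164), although 1 of its other 4 probes differed by -0.05. Cavin4 and Tspan32 were called in both row fits, and Xlr4a and Pax3 over all arrays. Echdc2 and Pcdh19, also among the 12 largest with KPT higher (-3.37 and -2.71), lost their calls in 4 of 6 fits that left out 1 array, among them each fit without a KPT array.

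**Figure D5:**
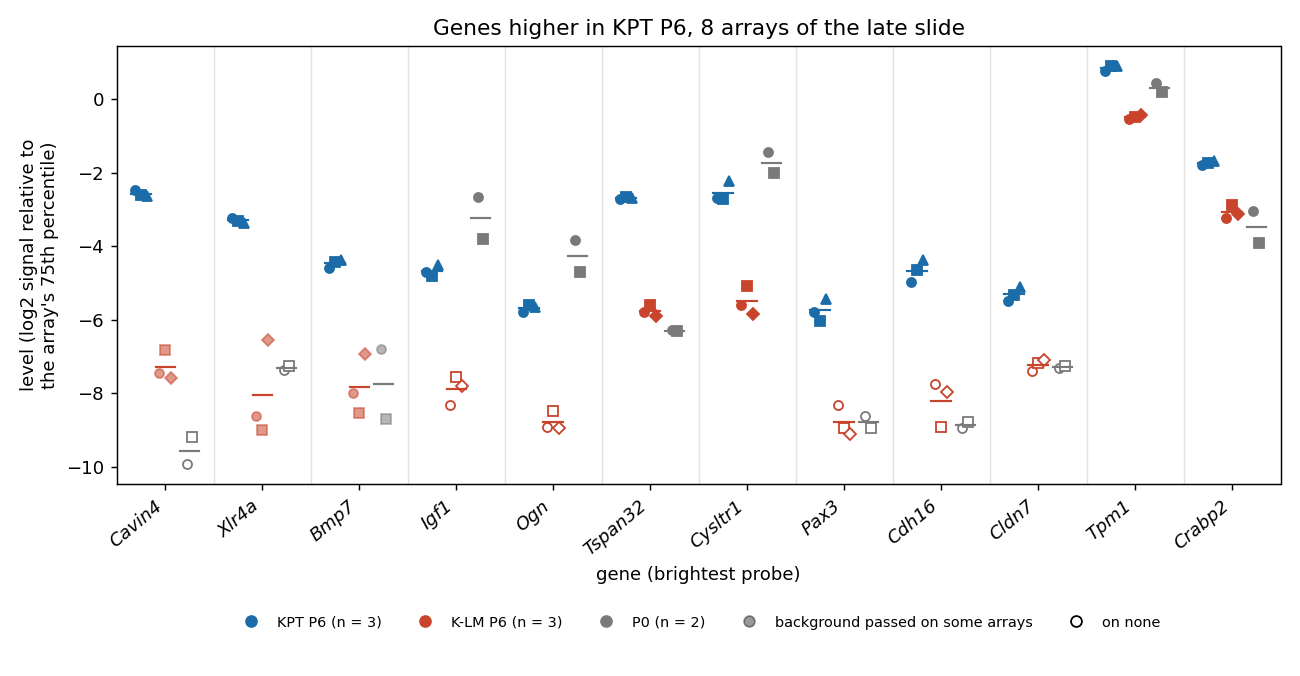
Levels (log2 signal relative to the array's 75th percentile) of 12 genes with KPT higher, on each array of KPT P6 (blue), K-LM P6 (red) and P0 (grey), with lines at the means and open symbols where no array of the group was above background. P0 lies above the K-LM arrays for Igf1, Ogn, Cysltr1 and Tpm1, and near or below them for Cavin4, Tspan32, Pax3 and Cdh16.

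The parental arrays divided these genes. Cysltr1, a leukotriene receptor, was at -1.45 and -2.01 in P0, at -2.69, -2.71 and -2.24 in KPT and at -5.60, -5.08 and -5.84 in K-LM (-2.96 ± 0.22, adjusted p = 0.000187, called in both row fits). For it, as for Igf1 and Ogn, the K-LM level was the one far from P0. Cavin4 and Pax3 were instead below background in P0 and in most or all K-LM arrays, and present in KPT. Over the 1250 genes with KPT higher, the P0 mean was nearer to KPT for 768 and nearer to K-LM for 482. Of the 833 genes with K-LM higher it was nearer to KPT for 614 and nearer to K-LM for 219, and for 340 both lines were above P0. P0 entered no test here and has 2 arrays, so these counts are a description.

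Markers of blood cells moved with some genes higher in KPT. Of 21 leukocyte and macrophage markers on the array, 12 were tested: Ptprc (CD45), Tyrobp and Fcer1g were higher in KPT and below background on all K-LM arrays, by at least 1.05-fold, 1.84-fold and 3.04-fold, and Aif1 (1.19 ± 0.12) and Cd14 (0.85 ± 0.13) were higher in K-LM. Among all genes, 10.8% were called with KPT higher and 7.23% with K-LM higher. The call of Cd14 was lost without KPT replicate 2, KPT replicate 4 or K-LM replicate 2 (adjusted p up to 0.0150). Csf1r, Cd68 and Itgam did not pass (largest adjusted p = 0.405). Adgre1, C1qa, Laptm5, Mrc1 and 4 others were not well above background on any of the 8 arrays. The summed level of the list was 2.2 to 2.58 in KPT, 1.85 to 2.34 in K-LM and 1.56 to 1.70 in P0. Fcgr2b, an inhibitory antibody receptor of leukocytes, was at -2.79, -3.22 and -3.25 in KPT and at -6.17, -5.62 and -5.91 in K-LM (-2.81 ± 0.18, adjusted p = 0.000106), and was below background in P0. The part of leukocyte RNA in Fcgr2b, Cysltr1 and Tspan32 was not tested. None of the 3 leukocyte markers with KPT higher, nor Fcgr2b, was called in a row fit.

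Most markers of the host organs were not well above background. Of 15 lung epithelium markers, 10 were not well above background on any of the 8 arrays, including the surfactant genes Sftpa1, Sftpb and Sftpd, Nkx2-1 and Ager. Of the 4 tested, Lamp3 (-1.07 ± 0.13) and Aqp5 (-2.49 ± 0.35) were higher in KPT and Scgb1a1 (1.25 ± 0.20) in K-LM. Aqp5 lost its call without K-LM replicate 1 or KPT replicates 1 or 4 (adjusted p up to 0.0121), and Scgb1a1 without any 1 KPT array (up to 0.0170). Of 17 kidney tubule and glomerulus markers, 12 were not, including Umod, Slc34a1, Lrp2 and Nphs1, while the water channel Aqp3 was 1.61 ± 0.16 higher in K-LM (adjusted p = 0.000564) and Cdh16, described above, higher in KPT. Of 13 endothelial markers, 6 were not, including Pecam1, Tek and Tie1, and none of the 6 tested was called, with 1 at an unadjusted p under 0.05. Of all genes, 18.1% were called in either direction, and with 6 tested a count of none is near that share. The renal lineage factor Pax8 was at -2.65, -2.15 and -2.32 in KPT and at -2.31, -2.43 and -2.34 in K-LM (0.02, adjusted p = 0.94), and Pax2 and Hnf4a were not well above background on any of them. Wt1, the kidney development and Wilms tumour gene, was at -4.82, -4.11 and -3.95 in KPT and at -2.08, -1.84 and -1.83 in K-LM, 2.37 ± 0.22 higher (adjusted p = 0.000469). Its P0 arrays read -5.56 in row 1 and -8.97 in row 2, and with the row as a term the sign turned (-1.04, adjusted p = 0.15).

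Hypoxia and VHL-HIF targets were called in 8 of 29 genes tested (5 without KPT replicate 4), all higher in K-LM, against 7.23% of all genes in that direction, with a median of 0.37 and 1 gene with KPT higher at an unadjusted p under 0.05, while Vhl itself did not pass (0.19 ± 0.11, adjusted p = 0.217; levels -1.25, -1.28 and -1.11 in KPT and -1.08, -1.13 and -0.85 in K-LM). The sign of the Vhl difference turned in both row fits. Hif1a, the oxygen-regulated subunit, was at -0.43, -0.46 and -0.65 in KPT and at 0.48, 0.28 and 0.29 in K-LM, 0.86 ± 0.11 higher (adjusted p = 0.0015), and Epas1 did not pass (0.31, adjusted p = 0.0478). Ddit4, which restrains mTORC1, and the mitophagy receptor Bnip3 were 1.24 ± 0.09 and 1.09 ± 0.10 higher. Egln1 (1.58, adjusted p = 0.0035), Ankrd37 (1.31, adjusted p = 0.00166), Pfkfb3 and Slc2a1 were also among the 8 called, as was Hif1a itself. The HIF targets Car9 (-0.34, adjusted p = 0.378), Pdk1 (0.11, adjusted p = 0.41) and Vegfa were among the 21 that did not pass. In fits that left out 1 array, Ankrd37 kept its call and Egln1, Pfkfb3 and Slc2a1 each lost theirs at least once. The sign of Ankrd37 turned with the row as a term. Hexokinases 1 and 2 (Hk1, Hk2) were 1.47 ± 0.16 and 0.98 ± 0.12 higher in K-LM, among 3 of 18 glycolysis genes called. Samsn1, an adaptor protein counted in this list, was at least 2.56-fold higher in K-LM (adjusted p = 5.02e-05). The paper names it with Postn, Tnfsf13b and Ppef1 as Hif1a targets raised in VHL-knockout RENCA cells. Postn, Tnfsf13b and Ppef1 did not pass here. Samsn1 was called with the row as a term, Ddit4 and Hk1 over all arrays, and Hif1a in neither.

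The study chose its K-LM and KPT signatures on arrays of this series, so their counts are not independent evidence of direction. They are lists of human genes, and the counts here leave out SERPINA3, TPRG1 and CYP3A4, whose names no mouse gene shares. Of 14 K-LM signature genes 10 were higher in K-LM and none was called with KPT higher in limma (1 at an unadjusted p under 0.05), with a median of 2.06, and 8 of the 10 were called in every fit that left out 1 array. Cfb, Lrg1, Saa1 and Saa2 of them were called in both row fits. Among all genes, 7.23% were called with K-LM higher and 10.8% with KPT higher. Of 13 KPT signature genes 1, Plau, the urokinase gene, was called, with KPT 1.16 ± 0.14 higher (adjusted p = 0.00134), but not in the row fits (0.0767 and 0.408). Without K-LM replicate 3, 4 were called with KPT higher. The median was 0.23, that is, towards K-LM, and at an unadjusted p under 0.05 limma gave 6 with KPT higher and 4 with K-LM higher. Tprg, the mouse counterpart of TPRG1, was at -2.38, -2.83 and -2.39 in KPT and at -4.76, -4.84 and -4.08 in K-LM (-2.02 ± 0.22, adjusted p = 0.000818, and 0.0437 and 0.027 in the row fits), a gene chosen after its values were seen. The surface markers Cd44 (0.31, adjusted p = 0.161) and Nt5e (0.05, adjusted p = 0.673) and the aldehyde dehydrogenase Aldh1a1 (1.94 ± 0.88, adjusted p = 0.122) did not pass, and Aldh1a1 varied from -7.90 to -5.03 within KPT and from -6.00 to -3.18 within K-LM.

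Directions were then checked on the 5 KPT P6 arrays of the first set, which lie on other slides and of which 3 carry the same replicate numbers as the later arrays. Whether the same RNA was used is not stated. The K-LM arrays, in row 1, are shared between both comparisons. All 5 first-set KPT arrays lie in row 2 of their slides, as the later KPT arrays do. Row and group therefore coincide here too, and the check cannot tell them apart. Of 3567 called probes, 3557 (99.7%) had the same direction against the first-set arrays, as did all 1333 with a difference of 2-fold or more, and of all tested probes 84.2%. Saa2 was at -9.07 to -8.33 on the first-set arrays (median -8.46), Saa3 at -4.56 to -3.15 (-4.09) and Serpina3n at -9.16 to -8.45 (-8.67), all under their K-LM values. Xlr4a was at -3.77 to -3.09 (-3.30), Cavin4 at -2.81 to -2.28 (-2.59) and Bmp7 at -4.57 to -4.23 (-4.46), all above theirs. Igf1, at -4.75 to -4.58 (-4.71), also stayed above its K-LM levels. With KPT replicates 3 and 5, which have no array on the later slide, in place of the 3 KPT arrays and moved by the mean step between the array sets, 2080 probes were called, 1607 of them among the 3567.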

How the data were processed

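Total RNA of each sample was labelled with Cy5 and hybridised to an Agilent mouse array of 62976 spots. The deposited scanner files hold 1 red intensity per spot, and the authors' value table holds log2 median signal after quantile normalisation, used here as an alternative. Flagged and control spots (3671) were left out and spots of a probe averaged. The processed intensity was divided by each array's 75th percentile over the 11287 probes well above background on all 70 arrays, and log2 was taken. Probes well above background on at least 2 of the 6 arrays were tested with limma 3.58.1 (R 4.3.3), 3 arrays against 3, with Benjamini-Hochberg adjustment over all 20569 probes. Each gene is its brightest probe, and symbols were updated through RefSeq (GRCm38.p6). The scripts were tested on simulated data.

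A gene not well above background on any array of a group has a bound: the bright group's mean against the higher, per array, of the dim signal and the lowest signal well above background. The number of arrays limits the precision. Named genes were, among called genes without overlap and above background on all arrays of the brighter group, the 12 largest in each direction (at their bound where they had one), up to 3 called members per list and direction, and Saa2, Cfb, Vhl, Hif1a, Epas1, Mki67, Cd44, Nt5e and Aldh1a1. The members and lists were chosen with earlier results of these data known, and genes named outside that rule were chosen after their values were seen. Alternatives were another percentile, quantile normalisation, normexp on the median signal (no mean signal was used), a floor, other filters and thresholds, the replicate block, the slide row, the parental arrays, the RNA index, the first-set arrays and leaving out each array. The result for 1 gene is not reported here.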

Additional observations from a re-analysis of the deposited data

Results flagged for a closer look

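On the 5 first-set KPT arrays, which entered only the check of direction, Cfb was at -7.78 on replicate 5, far below the other 4, in a group whose median was -6.15. The gap to the nearest array was larger than Dixon's test allows at the 95% level, which chance alone exceeds in about 1 of 20 groups. Several genes were examined in this way, and Cfb was the only one past that limit. All 5 first-set values lay below the K-LM values of Cfb.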

How the results depend on the processing

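The number of probes called, 3567, stayed within 1.5 times under the 75th percentile of all probes (3465), quantile normalisation (4165), normexp (3791), a filter on all 6 arrays (3508), a floor (3730), the parental arrays in the fit (3060), the RNA index as a covariate (3224), both array sets with a slide term (3491) and the first-set KPT arrays (3146). It was 2129 without a filter on dim probes, 7407 at an adjusted p of 0.05, 1333 with a difference of 1 or more, and 1304 to 3074 when 1 array was left out. With the slide row as a term it was 217 (212 shared), 2080 with KPT replicates 3 and 5 and 419 over all 70 arrays with slide and row terms. The last 2 were chosen after seeing the data. The cause of these shifts was not tested. With the replicate number as a block 1627 probes were called (1422 shared). The pairing rests on a shared number only, since deviations of same-numbered arrays correlated at 0.293 and 0.033. The sign turned with the row as a term for Ankrd37 (-0.466), Ccl17 (-0.109), Ccn1 (0.061), Ccn4 (0.052), Fos (1.028), Fosb (1.002), Mki67 (0.329), Vhl (-0.865) and Wt1 (-1.044), over all arrays for Fosb (0.226) and Vhl (-0.15), and for Mki67 under the block (0.115) and when 1 array was left out (-0.334 to 0.042, the latter without KPT replicate 4). Signal over background limits 78 genes in KPT and 127 in K-LM to bounds.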

Other observations

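Retinoid genes were split. Of 11 tested, 2 were higher in KPT and kept the call in every fit that left out 1 array and with the row as a term. The shares of all genes called were 10.8% with KPT higher and 7.23% with K-LM higher. Dhrs3, which reduces retinaldehyde, was at -1.19, -1.06 and -0.45 in KPT and at -2.26, -2.89 and -2.48 in K-LM (-1.65 ± 0.23, limma adjusted p = 0.00205). Crabp2, which carries retinoic acid to the nucleus, was at -1.81, -1.75 and -1.67 in KPT and at -3.24, -2.89 and -3.13 in K-LM (-1.34 ± 0.12, adjusted p = 0.000366). Neither was called over all arrays (adjusted p = 0.458 and 0.0776). A further 3 were higher in K-LM, of which 1 was called without K-LM replicate 1, and each lost its call without at least 1 of the arrays.

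Of 11 ABC transporters tested, 6 were higher in K-LM (54.5%, against 7.23% of all genes), with a median of 0.62. None was called with KPT higher in limma, with 3 at an unadjusted p under 0.05. Abcb1b, a P-glycoprotein drug efflux pump, was at -5.77, -5.78 and -5.68 in KPT and at -4.09, -4.01 and -3.79 in K-LM (1.78 ± 0.11, adjusted p = 8.96e-05), was below background in P0, and was called with the row as a term but not over all arrays (adjusted p = 0.0524). The cholesterol exporter Abcg1 differed by 1.88 ± 0.19 (adjusted p = 0.000636) and Abcc3 by 0.84 ± 0.10 (adjusted p = 0.00133). Abcg1 and Abcc3 were called in neither row fit. These 3 kept the call in every fit that left out 1 array, and the count was 3 without K-LM replicate 1.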
